A study of Mus musculus with 4 samples.

Results

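The stefins are small inhibitors of cysteine proteases that act inside the cell. The genes described here are Stfa1, Stfa2, Stfa2l1, Cstdc5 and Cstb, 5 of the 28141 genes in the deposited expression table. They were taken from the table by symbol, and all 5 had a value in every library. The family was selected on the difference between knockout and wild type in these same libraries, because several stefins showed some of the largest rises, so the differences of the 5 genes are given as a description, without a test. The data are RNA-seq of polyadenylated RNA from leukaemia cells of the bone marrow of C57BL/6 mice, called LSCs in the labels; the series title speaks of leukaemia stem cells and chronic myeloid leukaemia. There were 2 groups of 2 libraries each, wild-type cells (WT) and conditional knockout cells for Ybx1 (Ybx1 cKO), a gene whose product, a Y-box protein, binds both DNA and RNA. The Cre driver, the deleted exons, the oncogene construct, the time of collection and the age of the mice are not given in the labels. Nothing says that the 2 libraries of a group came from separate mice, so SDs and p-values reflect the spread of these libraries alone, which may be technical.

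Stefins bind in the active-site cleft of papain-like proteases such as the lysosomal cathepsins B, L and S, and block them reversibly. Mammals have stefin A and stefin B. In the mouse the stefin A gene has multiplied into a row of neighbouring copies on chromosome 16, to which Stfa1, Stfa2, Stfa2l1 and Cstdc5 belong, while Cstb, the gene of stefin B (cystatin B), lies alone on chromosome 10. Stefin A copies are known from granulocytes and from skin, whereas stefin B is made in most cell types and guards the cytosol against cathepsins that leak out of lysosomes. Members of the wider cystatin family share a short loop, the most conserved part of the face that meets the protease, with glutamine, valine and glycine at its fixed positions.

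That loop is shown first, because these genes share it and because the likeness of their sequences limits how well their transcripts can be told apart. As it belongs to the wider cystatin family, it does not set stefins apart from other cystatins. Each line gives 60 bases of the coding sequence of GENCODE M21, 5′ to 3′, with the 15 bases that encode the loop in capitals. The loop was found by searching, in frame on the coding strand, for codons of glutamine, valine and glycine, each separated from the next by any 1 codon. Bases 112 to 171 of the coding sequence are shown for Stfa1, Cstdc5 and Cstb and bases 130 to 189 for Stfa2 and Stfa2l1.
Stfa1: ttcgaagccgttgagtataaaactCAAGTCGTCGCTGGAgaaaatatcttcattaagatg
Cstdc5: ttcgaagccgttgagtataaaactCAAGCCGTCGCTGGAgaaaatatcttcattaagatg
Stfa2: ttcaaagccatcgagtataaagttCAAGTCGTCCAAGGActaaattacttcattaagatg
Stfa2l1: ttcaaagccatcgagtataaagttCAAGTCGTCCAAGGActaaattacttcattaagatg
Cstb: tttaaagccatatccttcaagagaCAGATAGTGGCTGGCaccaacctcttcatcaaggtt

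This pattern was found once in each of the 11 stefins with a coding model, and these 11 genes held 8 different stretches. Stfa1 and Cstdc5 differed at 1 of the 60 bases, T29C, counted from 1 at the 5′ end of the stretch with the base of Stfa1 first. The stretches of Stfa2 and Stfa2l1 were identical. Over the whole coding sequence, Stfa1 and Cstdc5 had 97.9% identical bases and Stfa2 and Stfa2l1 had 96.4%. Cstdc6, a close relative of Stfa1 and Cstdc5 (93.5% and 95.2%), completed the first of these groups, and Csta2 and Cstdc4 formed another (96.9%). The other 40 pairs of chromosome 16 stefins had 73.1% to 88.3% identical bases, and Cstb had 51.6% to 60.2% with the other genes. The models used encode 97 codons for Stfa1 and Cstdc5, 103 for Stfa2 and Stfa2l1 and 98 for Cstb, stop codon not counted.

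**Figure D1:**
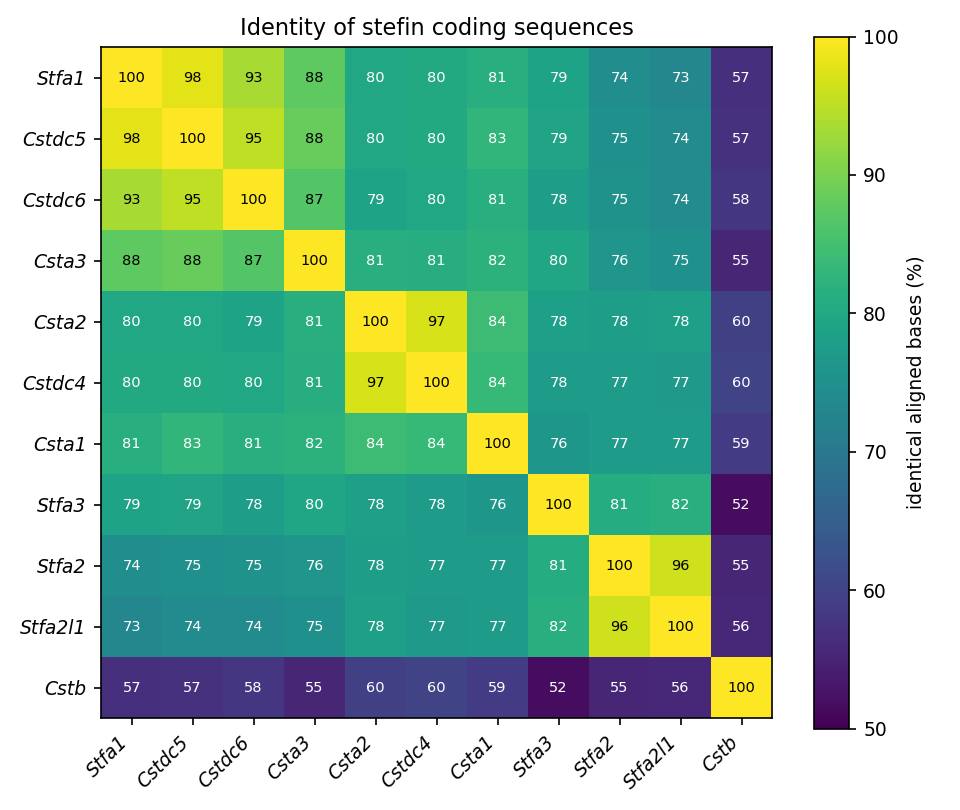
Identity between the coding sequences of 11 stefin genes. Each cell gives the percent of identical aligned bases of a pair of genes (colour scale from 50 to 100%), and the groups Stfa1, Cstdc5 and Cstdc6, then Csta2 and Cstdc4, and Stfa2 and Stfa2l1 stand out above 90%, with Cstb lowest against every other gene.

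Reads shorter than a shared stretch cannot be assigned to 1 copy. Of the 50-base windows in the transcripts of Stfa1, 22.5% also occurred in another gene, most often Cstdc5. The share was 36.2% for Cstdc5, 15.9% for Stfa2, 24.6% for Stfa2l1 and 0% for Cstb. With windows of 100 bases it was 5.07% for Stfa1, 15.6% for Cstdc5 and 0% for Stfa2, Stfa2l1 and Cstb. Read length, strand and the treatment of reads with several matches are not given in the labels, so the split between Stfa1 and Cstdc5, and between Stfa2 and Stfa2l1, is uncertain. Part of the overlap of Cstdc5 is with an antisense gene, whose reads cannot be told from those of Cstdc5 without strand.

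Levels are log2 values. The deposited scores are logarithms of unstated base. Multiplying them by 0.693 gave a scale on which replicates differed by about sampling noise. This reading takes 2 to the power of the log2 level as a read count. If the scores were plain log2, each difference would be 1.44 times as large. Depth was unknown, because the table holds no counts. The back-transformed levels (2 to the power of the log2 level) summed to 11074317 or more in each WT library and to 12134026 or less in each cKO library. Of all genes, 15527 were high enough to be tested, all 5 stefins among them. In limma's moderated test with Benjamini-Hochberg adjustment at 0.05, 5803 of those, or 37.4%, differed between the genotypes, 19.5% higher and 17.8% lower in cKO; without the mean-variance trend of the fit, 2267 did. Ybx1 itself had log2 levels of 9.31 and 9.41 in WT and 8.19 and 8.13 in cKO, a fall of 2.29-fold (SE 0.08 on the log2 scale, adjusted p = 1.1e-11 with limma), so transcript of the targeted gene remained in the cKO libraries. Which exons the deletion removes is not known here, and whether the remaining reads come from undeleted cells was not tested.

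Of the 5 stefins, 4 were several-fold higher in cKO, and they are the 4 on chromosome 16. Cstdc5, a copy of the stefin A type known by its gene model BC100530, had the largest difference of all 15527 genes tested. Its log2 level was 6.77 in each WT library and 9.89 and 9.95 in cKO. The cKO values were 3.11 or more above the WT values, and the replicates lay close together. The mean difference was 3.15, or 8.87-fold (6.77 ± 0.00 in WT and 9.92 ± 0.04 in cKO, SD, n = 2 each).

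Stfa1, the stefin A copy with the highest level among these 4 genes, had log2 levels of 8.26 and 8.23 in WT and 11.22 and 11.25 in cKO. The genotypes did not overlap, and the gap of 2.96 between them was far wider than the spread within either. The mean difference was 2.99, or 7.94-fold, with means of 8.24 ± 0.02 and 11.23 ± 0.03 (SD, n = 2 each). It stood in place 4 of all tested genes by size of the rise.

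Stfa2 had log2 levels of 6.93 and 6.45 in WT and 8.89 and 8.93 in cKO. The WT libraries were less alike here than for any other member, with an SD of 0.34, but both lay below both cKO libraries. The difference was 2.22, or 4.65-fold, in place 18. Without WT replicate 1 or without WT replicate 2, the difference was 2.46 or 1.98. Its direction could not turn, as the groups did not overlap.

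Stfa2l1, the near copy of Stfa2, had log2 levels of 6.79 and 6.70 in WT and 8.48 and 8.61 in cKO. The groups were again apart, by at least 1.69. The difference was 1.80, or 3.47-fold, in place 49.

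Cstb behaved otherwise. Its log2 levels were 10.00 and 9.92 in WT and 10.24 and 10.35 in cKO, the highest level of the 5 genes in WT. The cKO libraries lay above the WT libraries by 0.24 or more. The difference was 0.34, or 1.26-fold (9.96 ± 0.06 and 10.30 ± 0.07, SD, n = 2 each), in place 3615. All 5 genes thus had both cKO values above both WT values, as 32.7% of all tested genes did, and 4 of the 5 were at least 2-fold higher, as 3.1% of all tested genes were. These counts describe how the genes were picked and are not evidence about them.

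**Figure D2:**
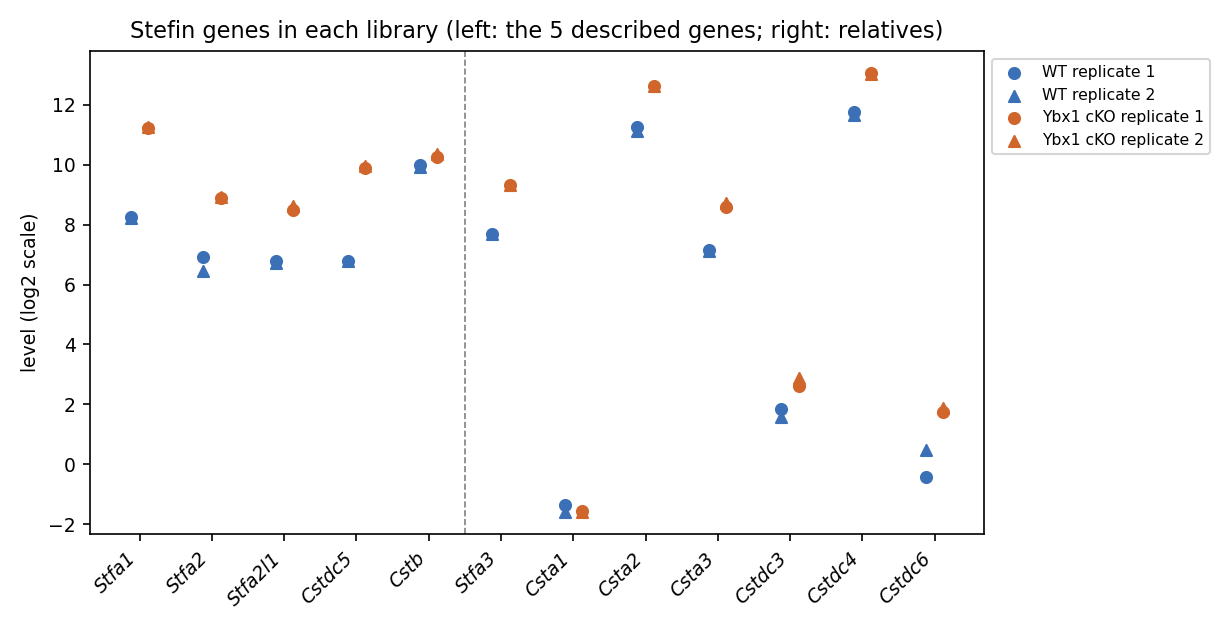
Log2 level of each stefin gene in each of the 4 libraries, WT to the left and Ybx1 cKO to the right at each gene, marker shape giving the replicate. The 5 genes described here stand on the left and their relatives on the right; Stfa1 and Cstdc5 show the widest gaps between the genotypes (2.96 and 3.11), and Cstb a gap of 0.24.

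Because reads may be split among near-identical copies, the copies were also summed before the logarithm was taken. Stfa1, Cstdc5 and Cstdc6 together had log2 levels of 8.70 and 8.68 in WT and 11.70 and 11.75 in cKO, a difference of 3.03, or 8.18-fold. Stfa2 and Stfa2l1 together had 7.86 and 7.58 in WT and 9.70 and 9.78 in cKO, a difference of 2.01, or 4.04-fold. If reads with several matches were shared out within a group of copies, these sums do not depend on the split. If such reads were dropped, the sums lack them, and reads shared with genes outside a group stay uncertain. The genotypes did not overlap in either sum. Within a library, the log2 difference between Stfa1 and Cstdc5 was 1.49 and 1.45 in WT and 1.33 and 1.30 in cKO, so these genes kept nearly the same proportion. Stfa2 and Stfa2l1 were near equal in all 4 libraries, with Stfa2 ahead by 0.14 and -0.25 in WT and by 0.41 and 0.32 in cKO.

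Levels of different genes were compared per 1000 bases of exon, on the back-transformed linear scale. In WT, Cstb was highest (1701 and 1602 per kb), followed by Stfa1 (432 and 422). Stfa2 (259 and 186) and Stfa2l1 (265 and 249) overlapped in WT, and Cstdc5 was lowest (138 and 139). In cKO the order changed. Stfa1 came first (3349 and 3435 per kb), ahead of Cstb (2012 and 2162), and Cstdc5 (1201 and 1254) moved ahead of Stfa2 (1007 and 1035) and Stfa2l1 (852 and 931), with no overlap between neighbours in this order. The same turn is seen in the log2 level without a length correction, where Stfa1 was below Cstb by 1.74 and 1.69 in WT and above it by 0.97 and 0.90 in cKO. Orders per kb depend on the annotated exon lengths and on the split of reads between near-identical copies, which is uncertain. Separation of the libraries does not remove either limit.

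Summed per kb over the 11 stefins with a length, Stfa1 made up 4.59% and 4.81% of the stefin level in WT and 13.01% and 13.15% in cKO. Cstdc5 went from 1.47% and 1.58% to 4.66% and 4.80%. The share of Cstb was 18.1% and 18.2% in WT and 7.82% and 8.28% in cKO, although its own level was a little higher there. The largest share in every library belonged to a relative outside the 5 genes, Csta2, with 40.2% and 39.5% in WT and 38.2% and 37.7% in cKO. Shares per kb depend on the annotated exon lengths, which for Csta3 hold the coding part alone and for Cstdc4 include a retained intron.

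**Figure D3:**
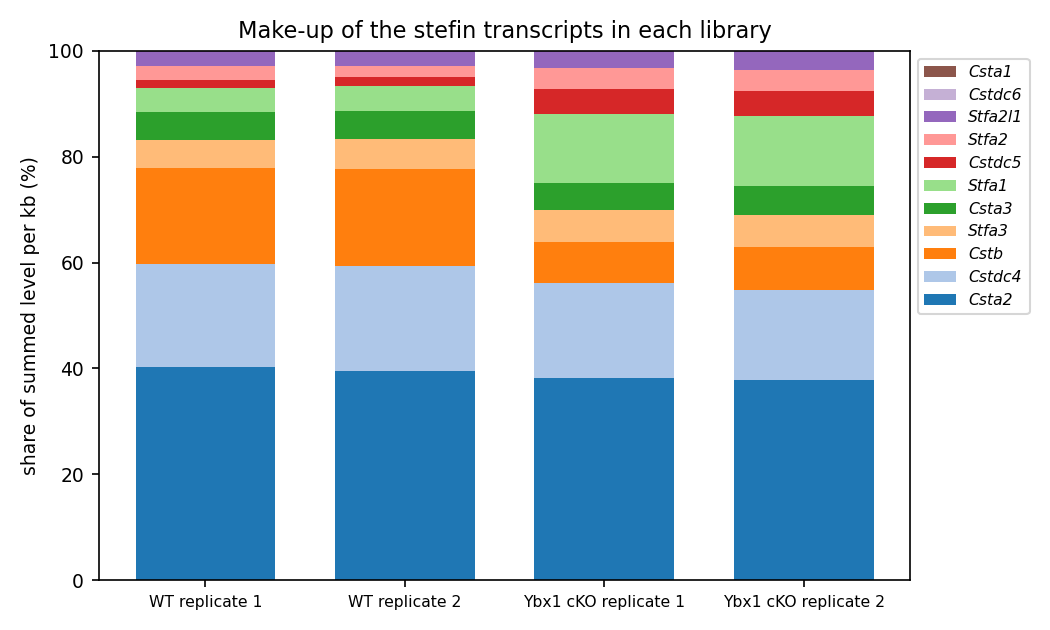
Share of each of 11 stefin genes in the summed level per kb (vertical axis, %), 1 stacked bar per library. Stfa1 grows from 4.59% and 4.81% in WT to 13.01% and 13.15% in Ybx1 cKO, the share of Cstb shrinks from about 18.1% to 7.82% and 8.28%, and Csta2 is the largest part of every bar.

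The relatives that were not picked are the other stefin A copies, 7 of which had a row. Of these, 5 passed the filter on low values in both genotypes, 1 (Cstdc6) passed it through the cKO libraries alone, and Csta1 did not pass it. In limma's test 4 of the 5 rose in cKO and none fell, with a median log2 difference of 1.44. Over all tested genes 19.5% rose and the median was 0.00. Csta2, which had log2 levels of 11.24 and 11.12 in WT and 12.62 in both cKO libraries, rose by 1.44 (SE 0.04, adjusted p = 1.8e-19 with limma). Cstdc4, the near copy of Csta2 and the stefin with the highest level before correction for length, rose from a mean of 11.70 to 13.04 (log2 difference 1.33, SE 0.03, limma adjusted p = 5.2e-20).

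Stfa3 rose from log2 levels of 7.68 in both WT libraries to 9.32 in both cKO libraries (difference 1.64, SE 0.09, limma adjusted p = 9.8e-14). Csta3 rose from 7.14 to 8.67 (difference 1.53, SE 0.11, limma adjusted p = 2.1e-11). Both had replicates that lay close together, and neither shared a 50-base window with another gene. For Csta2 that share was 20.4% and for Cstdc4 14.2%. Cstdc6 was near the lower end of the measured range, with log2 levels of -0.41 and 0.49 in WT and 1.74 and 1.88 in cKO. As it entered the comparison only through the cKO libraries, where it is high, its difference of 1.77 is given without a test. Of its 50-base windows 33.7% also occurred in another gene, most often Cstdc5, and whether reads of Cstdc5 were counted for it was not tested. Cstdc3 had a log2 difference of 1.03 that did not pass (SE 0.46, limma adjusted p = 0.085), and Csta1 was at -1.49 in WT and -1.56 in cKO.

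Summed, the 4 picked genes of chromosome 16 were 6.78-fold higher in cKO and the 6 other copies with a position 2.63-fold higher, which follows from how the genes were picked and was not tested. In absolute terms most of the stefin A level came from the unpicked copies: they summed to 6200 and 5811 in WT against 649 and 601 for the 4 picked genes, and to 15891 and 15628 against 4158 and 4307 in cKO, all back-transformed levels without correction for length.

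In GRCm38 the chromosome 16 copies lie between positions 36119946 and 36455392, a stretch of 335 kb with 10 stefins that could be placed with GENCODE M21. Stfa2l1 is at chr16:36156811-36161953 and Stfa1 at chr16:36276951-36285373, both on the plus strand. Cstdc5 is at chr16:36359382-36367748 and Stfa2 at chr16:36403992-36408457, both on the minus strand. Cstb is at chr10:78425669-78427622 on the plus strand. The picked genes are thus spread through the row and interleaved with the others, on both strands.

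By median, genes beside the row differed less than the unpicked stefins described above. Of the 10 nearest tested genes beside it, 5 on each side, 2 rose in limma's test and none fell, near the 19.5% that rose among all tested genes, and their median log2 difference was 0.04 (from -0.18 to 1.24). Fam162a, 48.4 kb from the border, rose by 0.33 (SE 0.03, limma adjusted p = 2.6e-08; 0.077 without the mean-variance trend). Gm15564, a predicted gene of low level, rose by 1.24 (SE 0.47, limma adjusted p = 0.039), a call that was lost without the filter on low values and without any of 3 libraries in turn, WT replicate 2 or either cKO library (limma adjusted p from 0.053 to 0.33 in these fits). Kpna1, Wdr5b, Ccdc58, Cd86, Slc15a2, Eaf2, Iqcb1 and Gm49599 did not pass.

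Inside the row lay 2 other genes of very low level. Gm6815, a pseudogene, had log2 levels of 1.49 and 1.06 in WT and 2.62 and 3.26 in cKO (difference 1.67, SE 0.48, limma adjusted p = 0.0073). Gm24801, a small nuclear RNA model that starts 134 bases after the end of Csta3, passed the filter only through the cKO libraries and is given without a test, with log2 levels of -0.69 and 0.32 in WT and 1.66 and 2.35 in cKO. Around Cstb on chromosome 10, 3 of the 10 nearest tested genes rose (Agpat3 by 0.45, Ilvbl by 0.51 and Plpp2 by 0.40 on the log2 scale), 1 fell (Pdxk, by 0.32), against 37.4% called among all tested genes, and their median was 0.06; without the mean-variance trend 1 of these 10 was called. The difference of Cstb, 0.34, lay within the range of these genes, -0.32 to 0.51. Not all of them are close to Cstb. Pdxk, at the lower end of the range, lay 9.12 kb away and Ilvbl, at the upper end, 147 kb. Plpp2 lay 1099 kb away and Mier2, the farthest, 1113 kb.

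**Figure D4:**
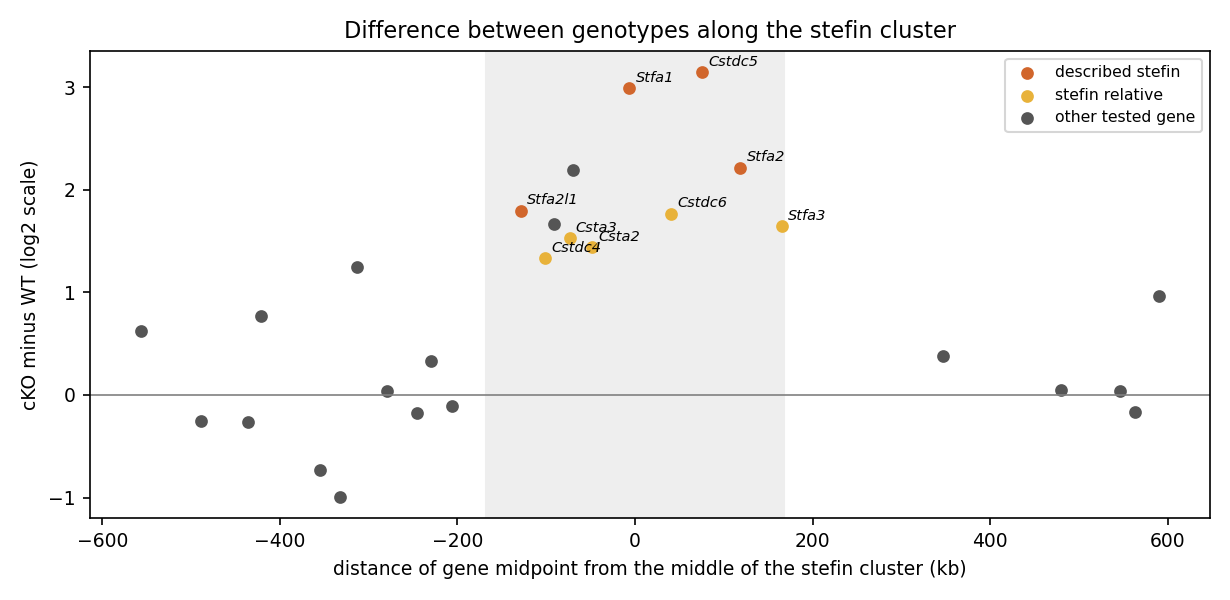
Log2 difference between Ybx1 cKO and WT (vertical axis) for tested genes along the stefin row on chromosome 16, by distance of the gene's midpoint from the middle of the row in kb (horizontal axis). Grey shading marks the row, inside which every plotted gene lies at 1.33 or above. The 10 nearest tested genes outside range from -0.18 to 1.24. The plotted genes of the row include the picked ones, chosen for their rise. They also include Cstdc6 and Gm24801, which passed the filter only through the cKO libraries. Csta1 (-0.08), in the row but below the filter, and Cstdc3 (1.03), which had no GENCODE position, are not plotted.

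Since Ybx1 belongs to the Y-box proteins, named after their binding to the inverted CCAAT box of DNA, the bases before the starts of the picked genes are shown. The 250 bases before the RefSeq start (GRCm38.p6) were available for 10 stefins, Stfa1, Cstdc5, Stfa2 and Stfa2l1 among them. Each line gives the part of these bases that lies outside the GENCODE gene, 5′ to 3′ on the strand of the gene. Capitals mark ATTGG, which reads CCAAT on the opposite strand, then CTTCCTC, which reads GAGGAAG there, and the run TTTAAAA. The windows are chr16:36276898-36276950 for Stfa1, chr16:36367749-36367820 (minus strand) for Cstdc5, chr16:36408458-36408613 (minus strand) for Stfa2 and chr16:36156561-36156810 for Stfa2l1.
Stfa1: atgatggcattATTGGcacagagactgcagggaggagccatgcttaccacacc
Cstdc5: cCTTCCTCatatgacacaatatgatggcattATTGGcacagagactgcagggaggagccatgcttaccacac
Stfa2: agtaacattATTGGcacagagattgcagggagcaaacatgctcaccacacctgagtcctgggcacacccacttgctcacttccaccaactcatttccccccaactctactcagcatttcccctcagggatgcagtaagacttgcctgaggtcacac
Stfa2l1: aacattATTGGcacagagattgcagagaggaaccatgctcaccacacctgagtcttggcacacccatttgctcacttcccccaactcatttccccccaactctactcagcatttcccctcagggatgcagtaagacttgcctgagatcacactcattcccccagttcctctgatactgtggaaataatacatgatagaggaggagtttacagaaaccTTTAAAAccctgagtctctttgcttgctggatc

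The full 250-base windows of Stfa2 and Stfa2l1 had 89.4% identical bases and those of Stfa1 and Cstdc5 81.2%. CCAAT on either strand was found in 6 of the 10 stefins (Stfa1, Cstdc5, Stfa2, Stfa2l1, Stfa3 and Csta2) and in 34.5% of 27025 promoters. In Stfa1 it stood at -239 to -235 from the RefSeq start, in Cstdc5 at -219 to -215, in Stfa2 at -241 to -237 and in Stfa2l1 at -244 to -240. The GENCODE genes of Stfa1, Cstdc5 and Stfa2 start upstream of the RefSeq start, so CCAAT lies nearer to the GENCODE start there. The bases around it were alike but not identical in the 4 picked genes, as the lines above show, and Stfa3, which was not picked, carried it too, at -242 to -238.

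Other motifs were searched on both strands of the same windows. GAGGAAG, the core bound by PU.1, was in 4 of 10 stefins (Stfa1, Cstdc5, Cstdc4 and Csta1) and in 10.4% of all promoters. TTGCNNAA, a C/EBP motif, was in 3 (Stfa1, Cstdc5 and Csta3) against 9.55%. TGANTCA (AP-1) was in 1, Cstdc3, against 6.87%, and TTCNNNGAA (STAT) was in 1, Cstdc4, against 7.18%. TATAAA was in none of the 10 against 12.97%, whereas TTTAAAA, a run chosen after the sequences were read, was in 7 against 8.0%, at -30 to -24 in Stfa1, -29 to -23 in Stfa2, -33 to -27 in Stfa2l1 and -9 to -3 in Cstdc5. In Stfa1, Stfa2 and Cstdc5 the run TTTAAAA lies inside the GENCODE gene, downstream of its start. These windows belong to copies of a common ancestor, so their matches are not independent. A match describes letters, not binding, and no binding was measured in these libraries.

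Stefins act on cysteine cathepsins. Transcripts of these proteases, listed together with legumain, differed less than those of the 4 picked stefins of chromosome 16. As those stefins were picked for large rises, this comparison is not evidence about the proteases. Cstb, with a log2 difference of 0.34, differed less than Lgmn, Ctsb and Ctsc. After quantile normalization Cstb (0.30) still differed less than Lgmn (0.54), but more than Ctsb (0.13) and Ctsc (0.096). Of 11 listed cysteine cathepsins and legumain genes, 8 had a row and were tested. In limma's test 5 of the 8 rose and none fell, with a median log2 difference of 0.13. Over all tested genes 19.5% rose and 17.8% fell. Without the mean-variance trend 2 of the 8 were called, Lgmn and Ctsb. After quantile normalization 4 were called higher, and Ctsz, 1 of the 5, was called lower. Lgmn, the gene of legumain, an asparaginyl endopeptidase and not one of the papain-like cathepsins, rose most, from 12.92 to 13.70 (difference 0.78, SE 0.03, limma adjusted p = 1.3e-17). Ctsb, cathepsin B, had the highest level in the list before correction for length and rose from 14.14 to 14.60 (difference 0.46, SE 0.02, limma adjusted p = 1.8e-15; difference 0.13 after quantile normalization).

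Ctsc, the dipeptidyl peptidase that activates granule serine proteases, rose from 13.34 to 13.71 (difference 0.37, SE 0.03, limma adjusted p = 1.8e-11; difference 0.096 after quantile normalization). Ctso rose by 0.19 (SE 0.06, limma adjusted p = 0.012), a call that was lost without WT replicate 1 or WT replicate 2 (limma adjusted p = 0.055 and 0.068). Ctsz rose by 0.08 (SE 0.02, limma adjusted p = 0.0054), but after quantile normalization it was 0.17 lower in cKO, at a log2 difference of -0.17 (limma adjusted p = 3.6e-07), so no direction is given for it. Ctss (0.05), Ctsk (-0.13) and Ctsl (-0.19) did not pass, and Ctsf, Ctsh and Ctsw were not analysed here. Cathepsins of other classes, which stefins do not inhibit, rose as well: Ctsd, the aspartic cathepsin D, by 0.94 (SE 0.02, limma adjusted p = 4.6e-20) and Ctsa, a serine carboxypeptidase, by 0.50 (SE 0.04, limma adjusted p = 4.4e-11).

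Among the secreted or vesicular cystatins and kininogens, 8 had a row and 2 were high enough to be tested, and these moved apart. Cst3, cystatin C, rose from 11.72 to 12.21 (difference 0.49, SE 0.03, limma adjusted p = 1.7e-11). Cst7, cystatin F, which controls cathepsin C in immune cells, fell by 0.58 (SE 0.08, limma adjusted p = 3.3e-06), a call that was lost without the mean-variance trend (limma adjusted p = 0.054). The cathelicidin relatives Camp, Ngp and BC048546 were not analysed here.

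Of 17 tested inhibitors of other protease classes, 3 rose, 7 fell and 7 did not pass, beside 19.5% higher and 17.8% lower over all tested genes, with a median log2 difference of -0.42. The 3 that rose, Wfdc18, Wfdc17 and Wfdc21, carry a whey acidic protein domain, and so does Slpi, which did not pass (log2 difference -0.07). Wfdc18 rose from 7.84 to 10.77 (difference 2.94, SE 0.07, limma adjusted p = 3.2e-20), a size near that of Stfa1. Wfdc17 rose from 12.24 to 13.97 (difference 1.73, SE 0.03, limma adjusted p = 1.3e-23). Among the serpins, which inhibit mainly serine proteases, Serpina3f fell by 1.35 (SE 0.06, limma adjusted p = 8.9e-16) and Serpina3g by 0.47 (SE 0.03, limma adjusted p = 4.1e-13).

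**Figure D5:**
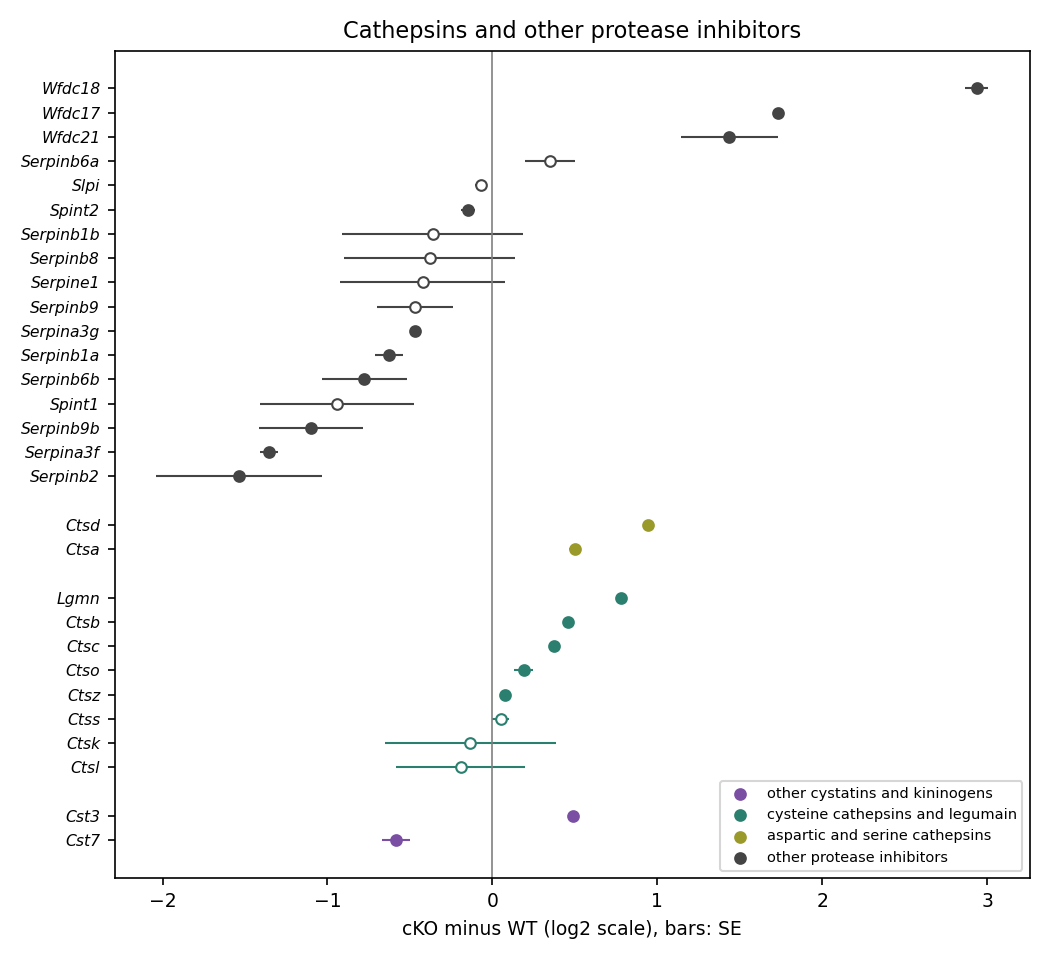
Log2 difference between Ybx1 cKO and WT (horizontal axis, bars give the SE) for tested cystatins, cathepsins and other protease inhibitors outside the stefins. Filled points passed the adjusted threshold in limma and open points did not; Wfdc18 (2.94) and Wfdc17 (1.73) lie farthest to the right and most serpins lie to the left of 0, while the cysteine cathepsins and legumain range from -0.19 to 0.78.

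Markers of several blood cell types differed too, to be read against 19.5% of all tested genes higher and 17.8% lower. Of 24 listed markers of mature neutrophils, 11 were tested, of which 8 rose and 2 fell (median log2 difference 0.94), and their summed back-transformed level was 10114 and 10578 in WT and 25866 and 26311 in cKO. Mmp8, the neutrophil collagenase, rose by 2.75 (SE 0.05, limma adjusted p = 2.4e-22), Mmp9 by 1.67 and Anxa1 by 1.24, while Ly6c1, at a low level, fell by 1.31 and Padi4 by 0.17. The other 13, with Ly6g, S100a8, S100a9, Ltf and Retnlg among them, were not analysed here, and none of the tested ones was at 0. Among markers of monocytes and macrophages, 10 were tested, with 6 higher and 2 lower in cKO (summed level 75295 and 75909 in WT, 129075 and 129780 in cKO). Lyz2, lysozyme, with a log2 rise of 2.25, made most of this difference: without it the sums were 62766 and 63369 in WT and 69300 and 70550 in cKO. Ms4a6c fell by 1.57 and Mpeg1 by 0.39.

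Of 4 tested markers of granulocyte progenitors, Cebpe and Igsf6 rose and none fell (median log2 difference 0.28). Gfi1, at a low level, and Prtn3 had lower means in cKO, with log2 differences of -1.16 and -0.44, and did not pass. The summed level, 1549 and 1588 in WT and 3317 and 3408 in cKO, came mostly from Cebpe and Igsf6. Of 9 tested stem and progenitor markers none rose and 3 fell, Mecom by 0.60, Gata2 by 0.43 and Ly6a by 0.69, and their sum went from 6689 and 6795 in WT to 4906 and 4969 in cKO. Ly6a lost its call without WT replicate 2 (limma adjusted p = 0.21). Of 4 tested erythroid markers none rose and 3 fell (Hemgn by 1.31, Tfrc by 0.51 and Gata1 by 0.22), and both tested T and NK cell genes fell (Gzmb by 1.44 and Lat by 0.55). Of 6 tested megakaryocyte and platelet markers 2 rose (Ppbp 4.29-fold and Pf4 1.60-fold) and 2 fell (Itgb3 3.72-fold and Itga2b 1.16-fold). Of 3 tested genes of basophils, mast cells and eosinophils Cpa3 rose by 0.14 and Hdc fell by 1.16 on the log2 scale. The single tested B cell gene, Cd79b, rose by 0.26 on that scale. Without the mean-variance trend the calls of Ly6a, Hemgn, Tfrc, Gata1, Itga2b, Hdc, Cpa3 and Cd79b were lost (limma adjusted p from 0.057 to 0.23). The call of Gata1 was lost without cKO replicate 2 (log2 difference -0.15). That of Cpa3 was lost without WT replicate 2 or cKO replicate 1 (log2 difference 0.13 and 0.12). It was also lost after quantile normalization (log2 difference 0.055, limma adjusted p = 0.32). The call of Cd79b was lost when any library but cKO replicate 2 was left out (log2 difference 0.20 to 0.32).

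Of the keratinocyte markers, which matter because skin also makes stefin A, only Krt10 was tested, at a log2 level of 6.62 in WT and 6.19 in cKO, and it did not pass (limma adjusted p = 0.057). These are bulk libraries, in which more cells of a type and more RNA per cell cannot be told apart, and the part of cell makeup in the stefin differences was not tested.

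The genes whose levels over the 4 libraries were closest in shape to those of Stfa1, Cstdc5, Stfa2 and Stfa2l1 were Klra2, Arg1, Tnfrsf26, Mmp8 and Lyz2. Likeness was measured as the Euclidean distance between log2 levels, each gene centred on its own mean. It was 0.10 for Klra2, a receptor of the Ly49 type, 0.23 for Arg1, arginase 1, 0.27 for Tnfrsf26, 0.31 for Mmp8 and 0.31 for Lyz2, against a median of 2.57 over all tested genes. Their own log2 differences were 2.58 for Klra2, 2.65 for Arg1 and 2.29 for Tnfrsf26. With 4 libraries in 2 groups, this measure finds mainly genes with a difference of like size.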

How the data were processed

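The tools listed per the submitters' processing notes are CASAVA, HISAT2 (version 2.1.0), DESeq2 and featureCounts, and the build is GRCm38; which step each served is not stated. The authors deposited 1 score per gene and library on a log scale of unstated base. It was read as log2 multiplied by 1.44, because the median ratio of replicate SD to Poisson SD was then 1.10 in WT and 1.31 in cKO, against 4.85 and 5.94 for plain log2. The Poisson SD treats the back-transformed level as a read count, and the choice assumes that replicates differ by little more than sampling noise. Neither assumption could be checked without counts. Genes entered the test where 2 or more libraries had a score of 1 or more. It was run with limma 3.58.1 in R 4.3.3 (mean-variance trend, two-sided, Benjamini-Hochberg over 15527 genes, threshold 0.05). A design for counts had been foreseen as an option and was not used, as no counts were given. The test was checked on simulated data.

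The genes, the lists and the tests were chosen with earlier results of these data known. Named genes are all stefins, cystatins and cathepsins with a row, the called neighbours, Ybx1, the 5 closest patterns, and up to 4 genes with the smallest p of each other list. Other genes inside the stefin row, Slpi, Gfi1, Prtn3 and the falling neutrophil and monocyte markers were named after their values were seen. Positions, exon lengths and coding sequences come from GENCODE M21 (27440 symbols placed, 224 of them by Entrez ID). Promoter sequences are from RefSeq. Alignments used Biopython 1.88.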

Additional observations from a re-analysis of the deposited data

How the results depend on the processing

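The differences of the 5 stefins kept their direction after quantile normalization and after a median shift. Leaving out a library could not turn them, because both cKO values lay above both WT values in each gene. Reading the scores as plain log2 could not either, because it only multiplies each difference. The median of the 5 differences was 2.22; it was 3.20 if the scores are read as plain log2, and between 1.98 and 2.46 with 1 library left out. Of all tested genes, 5803 were called; without the mean-variance trend 2267 were (1177 higher and 1090 lower), and 854 when a log2 difference of at least 1 was also asked for. Without the trend, 22 marker genes, 2 cysteine cathepsins or legumain, 0 neighbours of the stefin row and 1 neighbour of Cstb were called. Called neighbours of the row came to 1 without a filter, 1 with a score of at least 5, and between 1 and 2 with 1 library left out. The cause was not tested. Among single genes, 3 turned: Ctsl without cKO replicate 2 (0.23, with a range from -0.62 to 0.23 over the left-out libraries), and Ctss (-0.0023) and Ctsz (-0.17) after quantile normalization. Over 58 named tested genes and 12 alternatives, 643 of 692 values kept direction and call, 42 lost the call and 4 gained it. Replicate numbers are not known to pair the libraries (correlation of replicate deviations 0.013); with the replicate number as a block, 6026 genes were called. Depth could not be read from the scores, so low genes such as Cstdc6, Cstdc3 and Gm24801 are the least certain.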
